A study of Mus musculus with 24 samples.

Results

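The 44 genes examined here are a set of DNA replication and DNA repair genes, from the proteins that load the replicative helicase onto origins to the checkpoint kinases and mismatch repair. They are a list of gene symbols. A gene was matched through the RefSeq accession of its array probes, and all 44 had a probe, out of 22911 mouse symbols with 1. Each gene was read by its brightest probe in a tissue, and Brca1, for which the list asks for every probe, by both of its probes. The study took white adipose tissue (WAT), liver, kidney and lung from male C57BL/6J mice at 10 weeks (10W, here called young) and 90 weeks (90W, aged), with 3 mice per age and tissue and 24 single-colour Agilent arrays in all. No treatment or engineered allele is given for any group, and the young mice of the same tissue are the only controls. The aged livers carry the numbers 1, 2 and 4. The study set WAT apart from the other 3 tissues for the proliferation factor FOXM1, and the comparison made here was aged against young mice within each tissue, then the age change between tissues.

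A cell copies its DNA once per division. In G1 phase the origin recognition complex, CDC6 and CDT1 load the ring of MCM2 to MCM7 onto origins, and in S phase CDC45 and the GINS complex turn the ring into the active helicase, behind which DNA polymerases, the sliding clamp PCNA and its loader RFC copy both strands. Many of these genes are transcribed only as a cell prepares to divide, under E2F transcription factors, and most cells of adult liver, lung, kidney and fat rest outside the cycle. Repair proteins such as XRCC1, PARP1 and MSH6 act in resting cells too.

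Promoters are shown for 5 of the 7 genes that rose in 3 tissues, those with the largest mean change over the tissues called. The E2F motif, the site shared by many replication promoters, is in a promoter of each of these 5 genes. The sequences run from 250 bases before to 50 after the listed start in RefSeq's GRCm38.p6 assembly, 5′ to 3′ on the gene's strand, and capitals mark the E2F motif. Uhrf1 has 2 listed starts, and only the promoter of the second, on the plus strand at chr17:56304063-56304362, held the motif. That of the first start, with 0 matches, is not shown. The promoter of Mcm5 is at chr8:75109259-75109558 on the plus strand, where 2 matches on opposite strands overlap. That of Mcm3 is at chr1:20820263-20820562 on the minus strand and has 2 matches, both after the start. Those of Cdt1, on the plus strand at chr8:122567765-122568064, and of Mcm6, on the minus strand at chr1:128359656-128359955, complete the set, and in Mcm6 2 of the 3 matches overlap. Of the other genes that rose in 3 tissues, Rrm2 had a listed promoter with 0 matches, and Pole had none in the table.
Uhrf1: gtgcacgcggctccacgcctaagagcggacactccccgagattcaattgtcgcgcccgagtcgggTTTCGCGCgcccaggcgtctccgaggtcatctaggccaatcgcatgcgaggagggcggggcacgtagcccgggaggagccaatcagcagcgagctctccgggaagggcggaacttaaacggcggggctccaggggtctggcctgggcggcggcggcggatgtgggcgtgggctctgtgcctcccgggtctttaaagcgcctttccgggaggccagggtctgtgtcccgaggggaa
Mcm5: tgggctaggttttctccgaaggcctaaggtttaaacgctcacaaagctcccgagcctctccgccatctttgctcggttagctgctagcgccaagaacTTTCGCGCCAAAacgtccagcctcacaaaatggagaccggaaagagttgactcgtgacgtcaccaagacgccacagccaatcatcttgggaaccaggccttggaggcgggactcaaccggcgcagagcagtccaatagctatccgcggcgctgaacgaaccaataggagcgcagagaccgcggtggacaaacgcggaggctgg
Mcm3: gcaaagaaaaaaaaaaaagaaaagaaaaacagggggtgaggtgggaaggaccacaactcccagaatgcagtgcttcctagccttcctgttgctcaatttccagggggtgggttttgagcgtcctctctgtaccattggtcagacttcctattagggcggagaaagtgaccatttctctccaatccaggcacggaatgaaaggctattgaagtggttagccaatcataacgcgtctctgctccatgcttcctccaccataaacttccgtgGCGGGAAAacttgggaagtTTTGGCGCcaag
Cdt1: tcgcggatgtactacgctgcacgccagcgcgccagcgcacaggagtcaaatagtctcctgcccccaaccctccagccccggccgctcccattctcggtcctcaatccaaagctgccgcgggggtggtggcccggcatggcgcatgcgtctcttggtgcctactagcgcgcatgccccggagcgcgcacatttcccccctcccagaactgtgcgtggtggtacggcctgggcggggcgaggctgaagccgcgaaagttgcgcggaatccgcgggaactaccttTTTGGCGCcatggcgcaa
Mcm6: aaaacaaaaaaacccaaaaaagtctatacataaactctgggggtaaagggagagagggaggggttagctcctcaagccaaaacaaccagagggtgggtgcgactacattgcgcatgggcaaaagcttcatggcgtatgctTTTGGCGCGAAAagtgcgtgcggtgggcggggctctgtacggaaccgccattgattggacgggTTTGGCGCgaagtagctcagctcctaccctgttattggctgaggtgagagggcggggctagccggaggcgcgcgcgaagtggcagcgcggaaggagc

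The motif was searched as TTTCCCGC, TTTCGCGC, TTTGCCGC or TTTGGCGC on either strand. Of the 44 genes, 37 had a promoter in the table. The E2F motif was in a promoter of 18 of the 37 (48.6%), against 2.60% of all 26994 genes listed. CCAAT, the box bound by NF-Y, was in 24 of the 37 (64.9%), against 41.04% of all genes, and both motifs together were in 12 (32.4%), against 1.12%. The motif TTTGAA, known as CHR from late cell cycle genes, was in 4 (10.8%), against 20.2%. Among the 16 genes with a promoter that rose in 2 or 3 tissues, 12 had the E2F motif. Among the other 21, 6 had it. These shares describe letters in 1 window per start and were not tested. A match is not a measured binding site, and no chromatin was measured in these mice.

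Levels are given as log2 of the array's background-subtracted signal minus the 75th percentile of that array, so 0 is a probe as bright as the 75th percentile and 1 unit is a 2-fold difference. A change is the aged mean minus the young mean on that scale, with its standard error (SE). It was called when the limma p-value, adjusted over all genes of the tissue, was under 0.05. Probes do not share a length or affinity, so levels are compared within a gene and not between genes. An exact permutation test of 3 against 3 mice cannot give a two-sided p below 0.1, and the limma p-values rest on a spread pooled over genes. The labels do not say whether tissues of the same number came from 1 mouse. Each tissue lay on 1 slide scanned at 1 time, so slide and tissue cannot be told apart, while both ages shared each slide. In bulk tissue, fewer cells of a type and less RNA per cell cannot be told apart.

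Between 58.6% and 71.1% of probes were well above background on an array, and arrays of a group correlated at 0.942 to 0.995. Before scaling, the 75th percentile signal was 259 to 307 in young and 340 to 448 in aged livers, and 460 to 618 in young and 788 to 862 in aged kidneys. Scaling to spike-in spots instead moved the median change of all genes by 0.11 in liver, -0.10 in lung, 0.39 in kidney and 0.0032 in WAT. The share of called genes that were higher went from 38.1% to 72.2% in liver and from 32.6% to 67.8% in kidney. Markers of each labelled tissue were present, with summed linear levels of 3032 to 5285 for hepatocytes in livers, 1690 to 2538 for lung epithelium in lungs, 282 to 931 for kidney tubule in kidneys and 973 to 1345 for adipocytes in WAT, in multiples of the 75th percentile. Aged lung 1 also carried hepatocyte markers at 164, against at most 3.15 in the other lungs. Neutrophil precursor markers stood at 591 in aged liver 2, 328 in aged lung 2 and 321 in aged WAT 3, against at most 24.03 on every other array of those tissues.

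Many of the replication genes rose with age in liver and kidney, and the calls in lung and WAT were few. In liver, 21 of the 42 genes tested were called higher and 0 lower, where 10.5% of all genes tested were called higher and 17% lower. In kidney, 27 of 42 were called higher and 5 lower, against 20.6% and 42.6% of all genes. In lung, 6 of 42 were called higher and 0 lower, against 2.72% and 2.89%. In WAT, 3 of 43 were called higher and 0 lower, against 2.01% and 0.579%. The liver count includes Exo1 and Chek1, and the kidney count Chek1, which passed the filter there only through aged mice. At an unadjusted limma p under 0.05, 24 genes were higher and 2 lower in liver, 22 and 0 in lung, 28 and 5 in kidney and 21 and 1 in WAT. By the unadjusted t-test named in the methods the counts were 24 and 0, 20 and 0, 28 and 6, and 22 and 1. The median change of the genes tested was 0.69 in liver, 0.32 in lung, 0.45 in kidney and 0.48 in WAT, beside medians over all genes of -0.20, -0.08, -0.23 and -0.05.

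The median change in WAT was not the smallest of the 4 tissues, and its mice were more spread than those of the lung or kidney. The median SE of a change was 0.21 in WAT, 0.23 in liver, 0.12 in lung and 0.10 in kidney. The aged mice all lay above the young ones for 24 of the 43 genes tested in WAT, where 13.7% of all genes did so, and all lay below for 2 (15% of all genes). The same counts were 26 higher and 2 lower in liver (16.8% and 33.1% of all genes), 25 and 1 in lung (11.6% and 24.2%) and 29 and 8 in kidney (23.1% and 47.6%). Aged WAT 2 had the lowest level of the 3 aged mice for 35 of the 44 genes. Aged liver 4 was lowest for 31, aged kidney 3 was lowest for 27, and aged lung 3 was highest for 30. Aged liver 2, the liver with neutrophil precursor markers at 591, was highest for 26, and without it 16 genes were called higher in liver and the median change was 0.57. Without aged lung 1, which carried hepatocyte markers, 4 were called in lung, and without aged lung 2, 7.

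Cdt1, Mcm3, Mcm5, Mcm6, Pole, Rrm2 and Uhrf1 were called higher in 3 tissues, and no gene in all 4. A further 13 were called higher in 2 tissues, which were the liver and the kidney for each. In all, 20 genes were called higher in both the liver and the kidney. Neither this overlap nor the counts by number of tissues were made over all genes, so they cannot be read as particular to the set. Of the rest, 9 were called higher in 1 tissue, 1 (Mcm10) was higher in lung and lower in kidney, 4 were called lower in kidney alone, and 10 were not called. Copying genes, from origin licensing to maintenance methylation, made up 34 of the set. Of those tested, 17 of 33 were called higher in liver, 6 of 34 in lung, 23 of 33 (and 3 lower) in kidney and 2 of 34 in WAT. Of the 10 repair and checkpoint genes the counts were 4 of 9 in liver, 0 of 8 in lung by limma (2 at an unadjusted p under 0.05), 4 of 9 (and 2 lower) in kidney and 1 of 9 in WAT. Over all genes 10.5% were called higher in liver, 2.72% in lung, 20.6% (and 42.6% lower) in kidney and 2.01% in WAT. Exo1 and Chek1 in liver and Chek1 in kidney are in these counts but passed the filter only through the aged mice. Their calls there cannot be read as a result about repair genes.

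**Figure D1:**
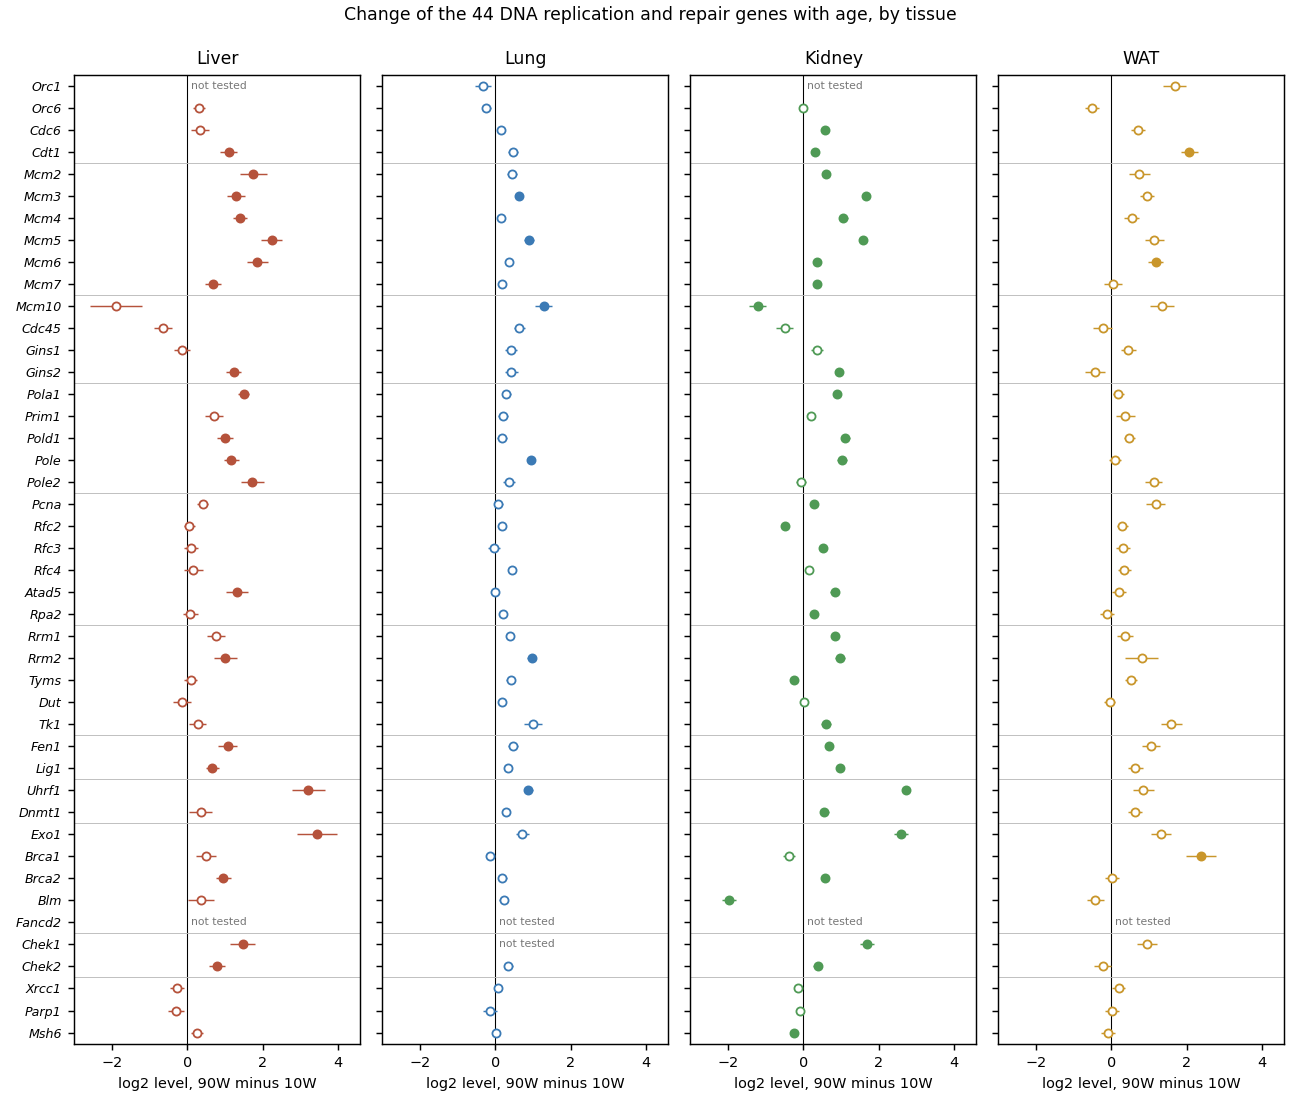
Change of each of the 44 genes with age in the 4 tissues. Points are the aged mean minus the young mean on the log2 scale (3 mice each) and bars are SE, filled where the limma adjusted p was under 0.05, with grey lines between roles. Filled points number 21 in liver, 6 in lung, 32 in kidney (27 to the right of 0) and 3 in WAT.

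All 6 genes of the helicase ring, Mcm2 to Mcm7, were called higher in liver and kidney, where 10.5% and 20.6% of all genes were. The changes were 0.68 to 2.25 in liver and 0.37 to 1.67 in kidney. The least firm were Mcm7 in liver, called in 6 of 17 alternative runs, and Mcm6 in kidney, called in 13 of 17. In lung Mcm3 and Mcm5 were called, and in WAT Mcm6. Mcm5, a subunit of the ring, read -1.45, -1.01 and -1.65 in the young livers and 1.14, 1.13 and 0.36 in the aged livers. The groups were far apart, with a change of 2.25 (SE 0.28, adjusted p = 0.00396). In kidney it read -1.05, -0.89 and -0.73 in young and 0.72, 0.72 and 0.62 in aged mice (1.58, SE 0.10, adjusted p = 0.000137), and in lung -0.18, -0.07 and -0.01 against 0.74, 0.67 and 1.02 (0.89, SE 0.12, adjusted p = 0.0209). The aged WAT values of Mcm5, 1.34, 0.77 and 1.56, also lay above the young ones, -0.07, 0.03 and 0.28, but the change of 1.15 was not called (adjusted p = 0.08).

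Mcm3 mice of an age lay close together in kidney, at -0.52, -0.58 and -0.45 in young and 1.24, 1.22 and 1.01 in aged mice, a change of 1.67 (SE 0.09, adjusted p = 8.13e-05). In liver it went from 0.13, 0.21 and -0.12 to 1.39, 1.75 and 0.95 (1.29, SE 0.24, adjusted p = 0.012), and in lung from 1.07, 0.96 and 1.20 to 1.75, 1.63 and 1.72 (0.62, SE 0.10, adjusted p = 0.029). Its groups did not overlap in WAT either, where the change was 0.96 (adjusted p = 0.0646). Mcm6 was the ring gene that was called in WAT, at 2.17, 2.63 and 2.53 in young and 3.80, 3.42 and 3.66 in aged mice (1.18, SE 0.20, adjusted p = 0.0444). The young livers, at 0.92, 1.31 and 1.17, had the lowest Mcm6 of any group, and the aged livers read 3.18, 3.39 and 2.42 (1.86, SE 0.28, adjusted p = 0.0067). The kidney change was 0.37 (adjusted p = 0.014).

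Mcm2, whose protein also carries histones, read -1.83, -1.18 and -1.19 in young livers and 0.77, 0.69 and -0.40 in aged livers (1.75, SE 0.35, adjusted p = 0.0158). Aged liver 4 lay more than 1 unit below the other aged livers and still above every young one. Mcm4 rose in liver from 0.00048, 0.14 and 0.11 to 1.63, 1.69 and 1.14 (1.40, SE 0.19, adjusted p = 0.00534) and in kidney by 1.07 (SE 0.12, adjusted p = 0.000624). Mcm7 changed least of the ring in liver, by 0.68 (adjusted p = 0.0488), and by 0.37 in kidney (adjusted p = 0.00527). Its age groups overlapped in lung and in WAT.

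**Figure D2:**
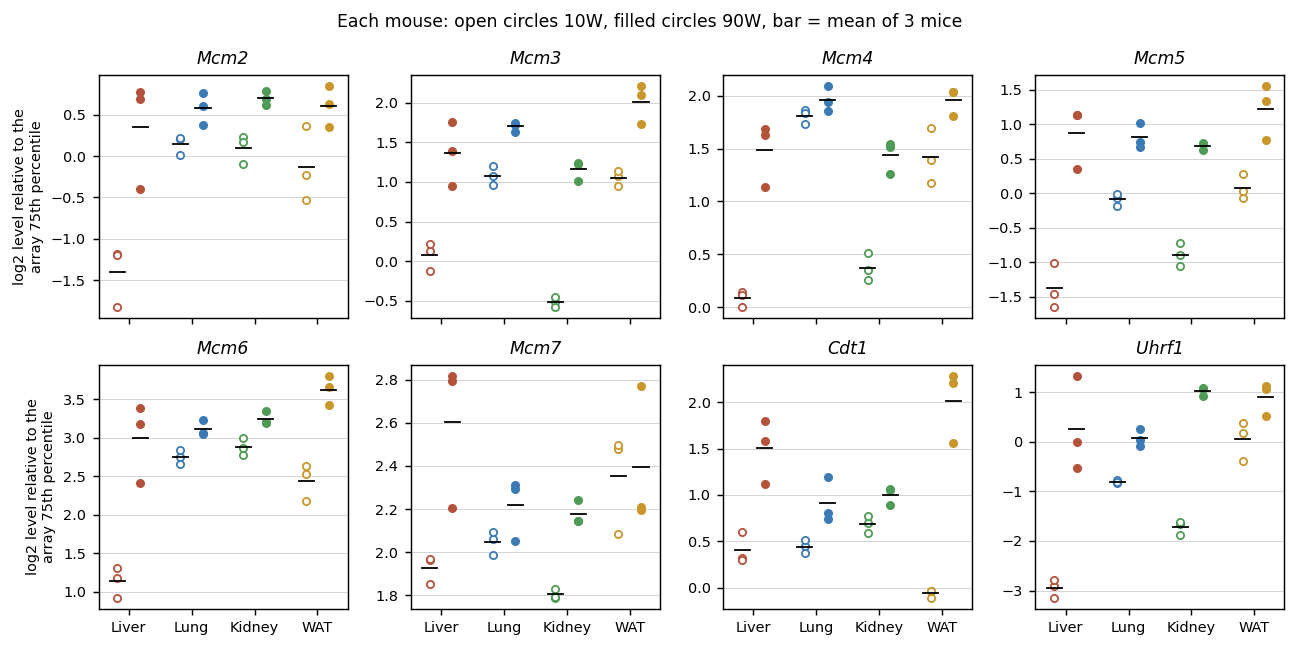
Level of Mcm2 to Mcm7, Cdt1 and Uhrf1 in every mouse (log2 relative to the array's 75th percentile, each panel with its own scale). Open circles are young mice, filled circles aged mice and bars the mean of 3. In liver and kidney every filled circle lies above every open one, and the Cdt1 groups are farthest apart in WAT (2.08).

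Among the loading factors Cdt1, which brings the ring to the origin and is destroyed once S phase starts, had its greatest change in WAT. It read -0.11, -0.04 and -0.04 in young and 2.28, 1.56 and 2.20 in aged WAT (2.08, SE 0.23, adjusted p = 0.0146). In liver it went from 0.59, 0.32 and 0.29 to 1.80, 1.58 and 1.12 (1.096, SE 0.22, adjusted p = 0.015), and in kidney the change was 0.31 (adjusted p = 0.025). Cdc6, the loading ATPase, was called in kidney (0.59, adjusted p = 0.00175). Orc1, the subunit of the origin recognition complex that is present mainly in G1, was below the background call in all young livers, kidneys and WAT. In aged WAT it was at least 2.15-fold higher, and the fit gave 1.69 (adjusted p = 0.055). In liver it was at least 1.3-fold and in kidney at least 1.44-fold higher, and in neither was it above background on enough arrays to be tested. Orc6, another subunit of that complex, was not called in any tissue, and in WAT its level was lower in every aged mouse (change -0.51, adjusted p = 0.213).

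Mcm10, which binds the assembled helicase at firing, was called lower in kidney and higher in lung. Its kidney level was 0.30, 0.74 and 1.19 in young and -0.56, -0.43 and -0.40 in aged mice (-1.21, SE 0.22, adjusted p = 0.00412). In liver it went from 4.98, 5.43 and 5.56 to 3.75, 1.74 and 4.78, with every aged mouse lower and aged liver 2 lowest (-1.90, SE 0.70, adjusted p = 0.0811). In lung it rose from -3.13, -2.54 and -3.06 to -1.29, -1.89 and -1.68 (1.29, SE 0.22, adjusted p = 0.0338). In WAT the change was 1.34 (adjusted p = 0.0914). Mcm10 had 1 probe on the array, whose young mean was 5.32 in liver against -2.91 in lung. Whether that probe reads Mcm10 alone was not tested. Gins2, a GINS subunit, rose in liver by 1.23 (adjusted p = 0.00786) and in kidney by 0.94 (adjusted p = 0.000259). Gins1, of the same complex, was not called anywhere and its age groups overlapped in all 4 tissues. Cdc45 was not called in any tissue.

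Polymerase genes rose in liver and kidney. Pola1, the catalytic subunit of the priming polymerase alpha, read -1.08, -1.14 and -0.95 in young livers and 0.49, 0.30 and 0.51 in aged livers (1.49, SE 0.15, adjusted p = 0.0024), and its kidney change was 0.90 (adjusted p = 0.000341). Pold1, the lagging strand polymerase, rose by 1.00 in liver (adjusted p = 0.0207) and 1.11 in kidney (adjusted p = 0.00061). Pole, the leading strand polymerase, was called in liver (1.17, adjusted p = 0.0117), the lung (0.94, adjusted p = 0.0154) and the kidney (1.04, adjusted p = 0.0011). In WAT its young mice read -0.28, -0.39 and -0.29 and its aged mice -0.19, -0.10 and -0.39, so the groups overlapped and the change was 0.10 (SE 0.16, adjusted p = 0.78). Pole2, its accessory subunit, was called in liver alone (1.73, adjusted p = 0.0118), and in kidney its groups overlapped. The primase gene Prim1 was not called, at 0.71 in liver (adjusted p = 0.0599) and 0.20 in kidney (adjusted p = 0.0504).

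The clamp, its loaders and the single-strand binding subunit were called mainly in kidney. Pcna, the sliding clamp, was called in kidney at 0.28 (adjusted p = 0.021), and in WAT it went from 3.05, 3.55 and 3.33 to 4.92, 4.16 and 4.38 without a call (1.18, adjusted p = 0.0813). Of the clamp loader genes, Rfc3 rose in kidney by 0.53 (adjusted p = 0.00357) while Rfc2 fell by 0.48 (adjusted p = 0.00216), and Rfc4 was not called. Atad5, which unloads the clamp, rose in liver by 1.33 (adjusted p = 0.0193) and in kidney by 0.84 (adjusted p = 0.00148). Rpa2, which coats single-stranded DNA, was called in kidney (0.30, adjusted p = 0.0413). For Okazaki fragments, the flap nuclease Fen1 rose by 1.08 in liver (adjusted p = 0.025) and 0.69 in kidney (adjusted p = 0.00065), and the ligase Lig1 by 0.67 (adjusted p = 0.0364) and 0.97 (adjusted p = 0.000454).

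Of the nucleotide supply genes Rrm2, the regulated subunit of ribonucleotide reductase, had changes of 0.81 to 1.01 over the 4 tissues. It read 1.04, 2.13 and 1.59 in young and 2.29, 2.81 and 2.68 in aged livers (1.01, SE 0.30, adjusted p = 0.0461), and its changes in lung (0.97, adjusted p = 0.0159) and kidney (0.98, adjusted p = 0.00126) were also called. In WAT the mice overlapped, at 0.91, -0.17 and 0.43 in young and 1.07, 0.59 and 1.92 in aged mice (0.81, SE 0.43, adjusted p = 0.362). The partner subunit Rrm1 was called in kidney (0.85, adjusted p = 0.000512). Thymidine kinase Tk1 rose in kidney by 0.60 (adjusted p = 0.00751). Its largest change was in WAT, from -0.39, -1.08 and -0.34 to 1.37, 0.66 and 0.96, where it missed the threshold (1.60, SE 0.29, adjusted p = 0.0523). Thymidylate synthase Tyms fell in kidney by 0.24 (adjusted p = 0.047), but with spike-in scaling its sign turned, to a rise of 0.15 that was not called. The dUTPase gene Dut had overlapping groups in all 4 tissues.

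Uhrf1, which recognises hemimethylated DNA behind the fork, had the largest change of the copying genes in liver and the kidney. It read -3.14, -2.91 and -2.80 in young livers and -0.0031, 1.32 and -0.52 in aged livers (3.21, SE 0.44, adjusted p = 0.00528). In kidney it went from -1.88, -1.65 and -1.62 to 1.06, 1.08 and 0.91 (2.73, SE 0.10, adjusted p = 3e-05). In lung, from -0.83, -0.77 and -0.81 to 0.04, -0.08 and 0.26, the change was smaller (0.88, SE 0.11, adjusted p = 0.0183). The young WAT mice, at 0.37, -0.40 and 0.17, were higher than the young mice of the other tissues, the aged ones read 1.07, 0.52 and 1.12, and the change of 0.86 was not called (adjusted p = 0.182). Dnmt1, the methyltransferase that UHRF1 recruits, was called in kidney (0.56, adjusted p = 0.00582).

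Repair genes did not move together. Exo1, a nuclease of mismatch repair and end resection, was called higher in liver and kidney. None of the young livers had it well above background, at -6.80, -5.38 and -5.23, and read -2.61, -1.45 and -3.03 in aged livers, at least 6.99-fold higher (fitted change 3.44, adjusted p = 0.0078). In kidney it went from -5.19, -4.85 and -5.55 to -2.51, -2.61 and -2.72 (2.59, SE 0.18, adjusted p = 0.000169). The young kidney readings were dim, and Exo1 was not well above background on every kidney array. Its kidney change lay between 0.91 and 2.98 over 17 alternative runs and was called in all 17. Brca2, a homologous recombination gene, rose by 0.96 in liver (adjusted p = 0.0186) and 0.57 in kidney (adjusted p = 0.00351). The base excision scaffold Xrcc1 and the break sensor Parp1 were called in no tissue, and their changes lay between -0.30 and 0.19, with both kidney values above 0 under spike-in scaling. Msh6, of mismatch recognition, fell in kidney by 0.23 (adjusted p = 0.0398), but with spike-in scaling its sign turned, to a rise of 0.15 that was not called. Fancd2, of crosslink repair, was above background on too few arrays to be tested in any tissue, and in WAT it was at least 1.62-fold higher in aged mice.

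Of the checkpoint kinases, Chek2, the kinase that answers double-strand breaks, rose by 0.79 in liver (adjusted p = 0.0394) and 0.38 in kidney (adjusted p = 0.0429). Chek1, the kinase that answers stalled forks, read -5.85, -5.55 and -6.84 in young livers, where it was not well above background, and -4.49, -4.60 and -4.75 in aged livers, at least 1.5-fold higher (fitted change 1.47, adjusted p = 0.0215). In kidney it was likewise not well above background in young mice, at -5.57, -6.10 and -5.62, and read -4.30, -3.87 and -4.05 in aged mice, at least 3.17-fold higher (1.69, adjusted p = 0.000597). Chek1 passed the filter in both tissues only through its aged mice, so these readings give no support for a rise, and with the background modelled by normexp instead of subtracted the Chek1 change was -0.16 in liver and -0.04 in kidney, neither called.

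The dimmest genes entered the tests only through their aged mice. That was so for Exo1 and Chek1 in liver, Chek1 in kidney and Orc1 in WAT, and such genes could pass the filter only if they were higher at 90W. Without regard to age, 40 genes of the set in liver, 41 in lung, 40 in kidney and 41 in WAT were well above background on all 6 arrays. Not tested were Fancd2 in every tissue, Orc1 in liver and kidney and Chek1 in lung.

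Brca1, the homologous recombination and fork protection gene, gave answers that depended on the probe. The array holds 2 probes for the accession NM_009764, and both were well above background on every array. A_66_P127735 was brighter in liver, lung and kidney and called no change there, at 0.50 (adjusted p = 0.173), -0.15 (adjusted p = 0.416) and -0.37 (adjusted p = 0.0825). A_51_P475523 was brighter in WAT, where it read -3.36, -3.74 and -3.04 in young and -0.34, -1.73 and -0.94 in aged mice, a called change of 2.38 (SE 0.39, adjusted p = 0.0422). The same probe read -3.97, -2.35 and -2.17 in young and -0.08, 0.25 and -0.20 in aged livers (2.82, adjusted p = 0.00937), and -3.95, -4.29 and -4.71 against -2.57, -2.37 and -2.41 in kidney (1.87, adjusted p = 0.000563). By A_66_P127735 the WAT change was 0.48 (adjusted p = 0.236). In lung A_51_P475523 gave 0.74 (adjusted p = 0.102). The direction of the kidney and lung changes therefore turned with the probe.

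Other genes also differed by probe. In liver Cdc6 changed by 0.33 on its brightest probe (limma adjusted p = 0.295). Its dimmer probe A_52_P371108 was not well above background in young livers or kidneys. By that probe Cdc6 was at least 4.58-fold higher in liver (limma adjusted p = 0.00151) and at least 6.26-fold in kidney (adjusted p = 0.000324). The dimmer probe passed the filter there only through aged mice, so its readings give no support for a rise. Lig1 has a probe on the transcript NM_001199310 that was at least 4.29-fold higher in liver and at least 3.36-fold in kidney, beside the 0.67 and 0.97 of its brightest probe on NM_010715. In both tissues the NM_001199310 probe also passed only through aged mice. Blm, the helicase that undoes recombination intermediates, was called lower in kidney on its brightest probe, at 0.20, 0.19 and 0.17 in young and -1.81, -2.17 and -1.41 in aged mice (-1.98, SE 0.19, adjusted p = 0.000426). Its other probe gave -0.37 there (adjusted p = 0.0828). Cdc45 on its brighter probe gave -0.65 in liver and -0.49 in kidney, neither called, and on the other probe 0.33 and 0.49, the latter with an adjusted p of 0.0105. Of the 66 cases in which 2 or more probes of a gene passed in a tissue, 8 had probes of opposite sign and 7 differed by more than 1, and the median difference was 0.16.

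**Figure D3:**
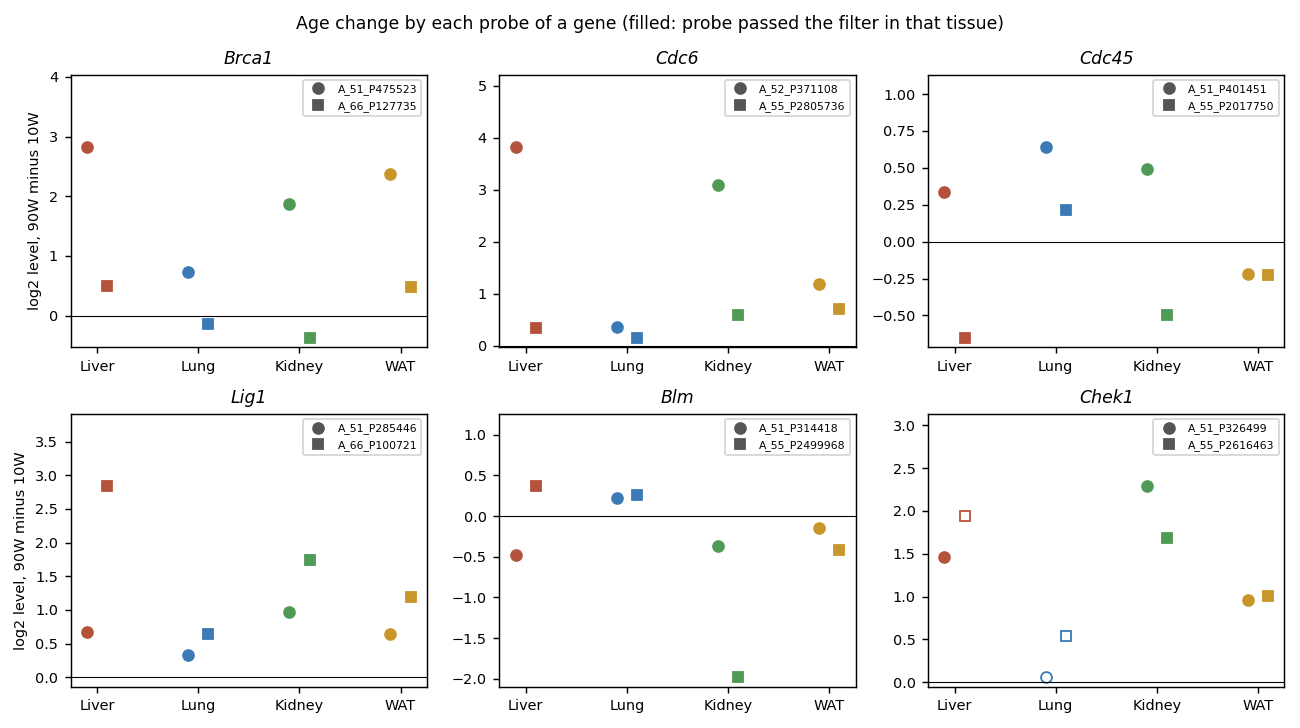
Age change by each probe of 6 genes with 2 probes (log2, aged minus young mean, 1 circle and 1 square per tissue, each panel with its own scale). Filled symbols passed the filter in that tissue. The Brca1 probes differ most in liver (2.82 and 0.50) and the kidney (1.87 and -0.37).

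Whether the age change differed between tissues was tested by a limma F test over 24 arrays, for the 41 genes with a probe that passed in every tissue. It was called for 24 of the 41, where 37.5% of all genes were called, and a fixed probe was used for each gene. The 24 include Exo1, which passed the filter in liver only through its aged mice. For Rrm2 the F test gave an adjusted p of 0.973, with changes of 1.01, 0.97, 0.98 and 0.81 in liver, lung, kidney and WAT. WAT was then set against the mean of the other 3 tissues. The change was greater in WAT for 6 genes (9.55% of all genes were called in this direction), which were Mcm10 by 1.95, Cdt1 by 1.45, Tk1 by 0.98, Pcna by 0.92, Tyms by 0.44 and Rfc2 by 0.39. It was smaller in WAT for 6 (4.5% of all genes), which were Uhrf1 by -1.42, Gins2 by -1.29, Pole by -0.96, Chek2 by -0.74, Pola1 by -0.71 and Orc6 by -0.53. Of the 6 greater, Mcm10 changed by 1.34 in WAT and 1.29 in lung, but by -1.90 in liver and -1.21 in kidney. Tyms changed by 0.52 in WAT, 0.41 in lung, 0.08 in liver and -0.24 in kidney, and Rfc2 by 0.30, 0.17, 0.05 and -0.48. Over the 41 genes the median difference was -0.02, and over all genes 0.13. Mcm2 to Mcm7 were not called in either direction. With the spike-in spots as the scale, 1 of the 6 greater changes was called, and without the young mice numbered 2 or the aged mice numbered 1 the count was 2.

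**Figure D4:**
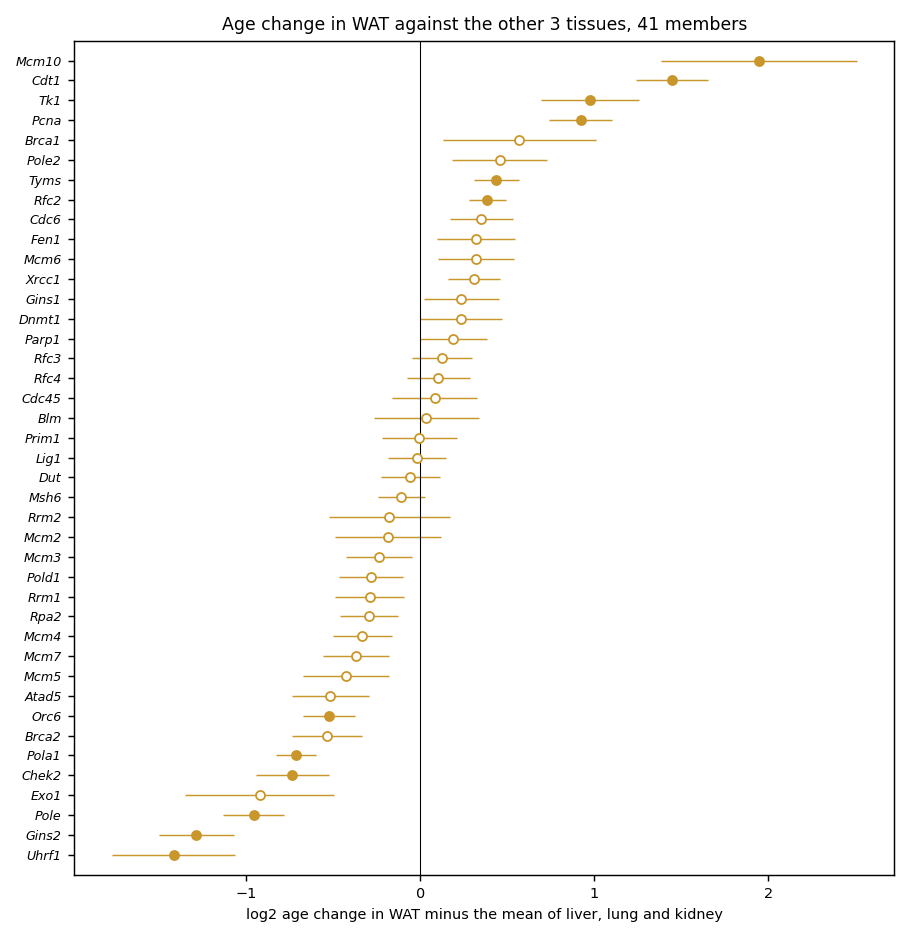
Age change in WAT minus the mean age change of liver, lung and kidney for 41 genes (log2), with SE bars and filled points where the limma adjusted p was under 0.05. Filled points lie at both ends, 6 to the right of 0 from Mcm10 (1.95) down and 6 to the left ending with Uhrf1 (-1.42).

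Other cell cycle genes, from lists chosen with these results known, were counted beside the set. Of 11 mitotic markers, 5 of 10 tested were called higher in liver, 7 of 11 in lung, 11 of 11 in kidney and 0 of 11 in WAT, with 0 lower in any tissue and 7 of the 11 in WAT at an unadjusted p under 0.05. Over all genes 10.5% were called higher in liver, 2.72% in lung, 20.6% in kidney and 2.01% in WAT. Mki67, the antigen of cycling cells, rose by 2.66 in liver, 1.48 in lung and 2.33 in kidney and differed by 1.03 in WAT (adjusted p = 0.218). The decatenating topoisomerase Top2a rose by 3.19, 1.44 and 2.55 and differed by 0.83 in WAT (adjusted p = 0.258). Foxm1 was not well above background in young livers and was at least 10.2-fold higher in aged ones. It rose by 0.94 in lung and 2.17 in kidney, and in WAT the change was 0.59 (adjusted p = 0.362). In WAT 1 gene of these lists was called, Lin52, a DREAM complex subunit (1.56, adjusted p = 0.0493).

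Of 19 E2F, RB and DREAM regulators, 2 were called higher and 1 lower in liver, 2 and 0 in lung, 6 and 6 in kidney and 1 and 0 in WAT. For 10 S-phase cyclins and kinases tested the counts were 3 and 0, 2 and 0, 6 and 1, and 0 and 0. Other replication genes outside the set, 38 in number, gave 7 and 1 in liver, 2 and 0 in lung, 11 and 10 in kidney and 0 and 0 in WAT. For 52 other repair genes the counts were 9 and 3, 3 and 0, 17 and 19, and 0 and 0. Over all genes, 10.5% were called higher and 17% lower in liver, and 2.72% and 2.89% in lung. The shares were 20.6% and 42.6% in kidney and 2.01% and 0.579% in WAT. At an unadjusted limma p under 0.05, WAT gave 2 and 0 of the cyclins and kinases, 6 and 0 of the replication genes and 7 and 2 of the repair genes. The largest called rises in the lists were Foxm1, Neil3, a glycosylase of replicating cells (at least 6.94-fold), and Top2a in liver, Ticrr (1.64), an origin firing factor, Neil3 (1.56) and Mki67 in lung, and Bub1, of the spindle checkpoint (at least 7.27-fold), Top2a and Mki67 in kidney. The largest called falls were Xrcc3 (-1.14), Wdhd1 (-0.73) and Neil1 (-0.70) in liver and Ung (-1.03), E2f5 (-0.92) and Pole4 (-0.88) in kidney. Foxm1 and Neil3 in liver and Bub1 in kidney passed the filter only through aged mice, so these readings give no support for a rise.

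Markers of immune cells were also called with age, beside the shares of all genes called that are given above for each tissue. All 6 macrophage markers were called higher in liver, where their summed linear level went from 48.2 to 66.6 in young to 205 to 238 in aged mice, and in kidney, from 21.6 to 24.8 to 78.2 to 112. In WAT 2 of 6 were called, with sums of 43.1 to 132 in young and 256 to 554 in aged mice, and in lung 0 of 6 by limma (also 0 at an unadjusted p under 0.05), with 45.9 to 48.0 and 35.9 to 135. Of 5 T cell markers measured, 2 were called higher in liver, 4 in lung, 4 (and 1 lower) in kidney and 3 in WAT, and of 6 B cell markers 1, 0, 4 (and 2 lower) and 4. Plasma cell markers were called higher for 2 of 4 in liver, 0 of 5 in lung, 4 of 5 in kidney and 3 of 5 in WAT, and germinal centre markers for 2 of 3, 0 of 3, 2 of 3 and 0 of 4. Of 5 kidney tubule markers 4 were called lower in kidney, with sums of 791 to 931 in young and 282 to 518 in aged mice, and 2 of 5 hepatocyte markers were called lower in liver. Of the adipocyte markers in WAT and the lung epithelium markers in lung 0 of 5 were called. Erythroid markers were higher in every aged lung for 4 of 4 tested, 1 of them called, with sums of 46.5 to 248 in young and 582 to 974 in aged lungs. Of 5 adipocyte markers, 4 were called higher and 1 lower in kidney (sums of 11.6 to 14.1 and 17.1 to 19.9) and 2 were called lower in lung (36.9 to 62.3 and 7.76 to 25.2). The part of these cells in the changes of the replication genes was not tested.

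The firmness of the calls differed by tissue. Leaving out each mouse in turn kept 25 of the 32 kidney calls and 10 of the 21 liver calls in every repeat. The 7 kidney calls lost at least once were Cdt1, Chek2, Mcm6, Msh6, Pcna, Rpa2 and Tyms. The liver calls that held were Exo1, Gins2, Mcm3, Mcm4, Mcm5, Mcm6, Pola1, Pole, Pole2 and Uhrf1. Of these, Exo1 passed the filter only through its aged mice. The count of liver genes called higher was 13 without young liver 2 or without aged liver 1. None of the 6 lung calls was left without any 1 of the 3 young lungs. The WAT count was 1 without young WAT 1 and 0 without young WAT 2 or 3 or aged WAT 1 or 3. For the 5 lower calls of the kidney the count was 3 without any 1 of the young kidneys or without aged kidney 1. With spike-in scaling 1 gene was called in lung and 2 lower in kidney, and with all 24 arrays in a joint fit 19 were called higher in WAT. No called change turned its direction when a mouse was left out.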

How the data were processed

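RNA of 4 tissues from young and aged mice was measured on 24 single-colour arrays. The authors' Feature Extraction 11.0.1.1 (per the submitters' processing notes) made the deposited intensity values, a background-subtracted processed signal for each of 62976 spots, not scaled between arrays. The files carry a mouse design on mm9, while the methods name a human kit. Probe accessions were matched without version to RefSeq genes of GRCm38.p6 (58.3% of 56605 probes), used for names and promoters only.

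Spots marked uneven or outlying were left out (1841 over all arrays) and 0 were saturated. Signals were put on the log2 scale, spots of a probe averaged, and each array's 75th percentile subtracted. Of the probes called well above background on 3 or more of a tissue's 6 arrays, the brightest per gene was used. limma 3.58.1 in R 4.3.3 (lmFit, eBayes) compared ages within each tissue and, over 24 arrays, the age change between tissues, with Benjamini-Hochberg adjustment over all genes and a threshold of 0.05. "At least N-fold" sets the bright group's mean against, on each array, the lowest signal called above background or the dim probe's own where that is higher, where the dim group has none above background. The number of arrays limits the precision, and p-values measure the spread between these mice.

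The genes, the other gene lists and the tests were chosen with earlier results of these data known. Values are given for Brca1, for most genes that were called and for only some whose age groups did not overlap without a call. The latter are left out mostly by name, while their counts are given for each tissue. Of other lists, values are given for the 3 largest called changes in each direction, Foxm1, Mki67 and Top2a. Alternatives were normexp background correction (offset 50), quantile, median and spike-in scaling, no or a stricter filter, the mean or the dimmest probe of a gene, a joint fit of all tissues, a block for the replicate number, the methods' t-test and leaving out each mouse. Slide could not be a block, since each tissue lay on 1 slide. The tests were checked on simulated data.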

Additional observations from a re-analysis of the deposited data

Results flagged for a closer look

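The age change differed between the 4 tissues, by the limma F test over all arrays adjusted over all genes, for 24 genes of the set. Among the licensing genes the adjusted p was 0.0126 for Orc6, 0.000215 for Cdt1, 0.033 for Mcm2, 0.00843 for Mcm3, 0.000878 for Mcm4, 0.00878 for Mcm5 and 0.000729 for Mcm6. Among the helicase activators it was 0.0016 for Mcm10, whose changes had opposite signs in the lung and the kidney, and 0.000643 for Gins2. Among the polymerases it was 1.18e-05 for Pola1, 0.00823 for Pold1, 0.00274 for Pole and 0.00192 for Pole2.

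Of the clamp genes it was 0.00373 for Pcna, 0.000939 for Rfc2 and 0.00305 for Atad5, and of the nucleotide supply 0.00417 for Tyms and 0.0246 for Tk1. For Uhrf1 it was 0.000491. Among the repair and checkpoint genes it was 0.00222 for Exo1, 0.0237 for Brca1 on the probe A_51_P475523, 0.024 for Brca2, 0.000374 for Blm and 0.0261 for Chek2. Exo1 passed the filter in liver only through its aged mice, so its value cannot be read as a difference between tissues.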

How the results depend on the processing

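The counts for the kidney's rises (27) and for the differences between tissues (24) stayed within 1.5 times under every alternative run, and of the 62 called changes 17 in the kidney, 8 in the liver, 0 in the lung and 0 in WAT kept their call under all alternatives other than the replicate block and the t-test. Signal over background limits the dimmest genes. The slide as a block was not run.

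In the liver, the count of 21 higher was 8 with the replicate block, 8 by the methods' t-test and 13 to 23 without 1 mouse. The count of 0 lower was 2 in 1 fit of 24 arrays and 0 to 1 without 1 mouse, and the median change of 0.69 was 0.57 to 0.88 without 1 mouse.

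In the lung, the count of 6 higher was 1 with spike-in scaling, 2 without a filter, 0 with the replicate block, 0 by the t-test and 0 to 7 without 1 mouse. The median was 0.21 with spike-in scaling and 0.22 to 0.35 without 1 mouse.

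In the kidney, the count of 5 lower was 3 with quantile scaling, 8 with median centring, 2 with spike-in scaling, 3 without a filter, 2 in 1 fit of 24 arrays, 3 with the dimmest probe and 3 to 4 without 1 mouse. The median of 0.45 was 0.32 with normexp, 0.54 with quantile scaling, 0.35 with median centring, 0.84 with spike-in scaling, 0.54 without a filter, 0.51 with the mean of probes, 0.53 with the dimmest probe and 0.43 to 0.52 without 1 mouse.

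In WAT, the count of 3 higher was 6 with quantile scaling, 1 without a filter, 5 with the stricter filter, 19 in 1 fit of 24 arrays (with 1 lower), 0 with the replicate block, 0 by the t-test, 1 with the dimmest probe and 0 to 2 without 1 mouse. The contrast of WAT with the other tissues gave 6 above, which were 1 with spike-in scaling and 2 to 8 without the mice of 1 age and number, and 6 below, which were 3 to 8.

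Signs turned for Chek1 with normexp (-0.16 in the liver, -0.0405 in the kidney), for Cdc45 in the liver with the dimmest probe (0.33), for Brca1 in the lung with the mean (0.29) or dimmest probe (0.74), and for Brca1 in the kidney with spike-in scaling (0.0155), the mean (0.75) or the dimmest probe (1.87). In the kidney they also turned for Xrcc1 with quantile (0.0601) and spike-in scaling (0.25), and with spike-in scaling for Parp1 (0.30), Tyms (0.15) and Msh6 (0.15). The cause of these differences was not tested. The dimmest probe was chosen after seeing the data.

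Replicate numbers were not shown to pair the samples. Deviations of young and aged mice of the same tissue and number correlated at -0.17 to 0.18 (1 of 11 pairs over 0.1), and those of the same age and number across tissues at -0.21 to 0.30 (9 of 33 over 0.1, among them all 3 pairs of aged kidney and WAT, at 0.13 to 0.17). With the arrays of a number as a random block (consensus correlation 0.02), the count of genes whose age change differed between tissues was 24, as without the replicate block.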

Other observations

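The range of the 4 tissue means was smaller at 90W than at 10W for 32 (78.0%) of the 41 genes read by the same probe in every tissue, a share near the 73.8% of 25774 genes. With normexp background correction the shares were 75.6% and 77.2%, and with spike-in scaling 90.2% and 72.5%. For Uhrf1 the range went from 2.998 to 0.94 on the log2 scale. These are descriptions of 3 mice a group and were not tested.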
